A study of Mus musculus with 4 samples.

Results

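Mixed droplets that carried pericyte RNA together with endothelial RNA were examined in single-cell libraries of mouse brain cells sorted on the endothelial surface protein CD31. The members were chosen by measured UMI counts, so the counts that chose them are given as a description. A droplet was kept with at least 1000 UMIs (unique molecules counted per gene and droplet), 500 or more genes detected and no more than 10% of UMIs from mitochondrial genes. A kept droplet counted as mixed when Vtn, Kcnj8, Abcc9, Atp13a5 and Pdgfrb summed to at least 8 UMIs, Acta2, Tagln and Myh11 to fewer than 10 UMIs, and Cldn5 reached at least 5 UMIs. This rule found 71 of 14864 kept droplets. Per library there were 5 of 1696 in control diet 1, 29 of 5509 in control diet 2, 14 of 3989 in PLX5622 diet 1 and 23 of 3670 in PLX5622 diet 2. A further 2 kinds of droplets served for description. Those that met the pericyte and smooth muscle parts of the rule but held fewer than 5 Cldn5 UMIs (114) are called pericyte droplets, and those that met the Cldn5 and smooth muscle parts with a pericyte sum under 8 (14126) are called endothelial-only droplets.

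All mice were C57BL6 and were fed for 1 month, on control diet or on chow with 1200 ppm PLX5622. This drug blocks CSF1R, which microglia need to survive, and the series asked what the loss of microglia does to brain vessels. Meninges, cerebellum and olfactory bulbs had been removed, and the brains of 3 mice per diet went into 2 libraries, so libraries of a diet may share mice and p-values measure only the spread between libraries. The libraries held 11186648 to 38600208 UMIs over all barcodes, and any 2 of them shared 1 to 6 kept barcodes. No doublet caller was applied, since droplets with RNA of more than 1 cell type are the object described.

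Pericytes are mural cells that lie within the basement membrane of capillaries and touch the endothelial tube. They depend on endothelial PDGF-B acting on PDGFRB, and in the brain they help to maintain the blood-brain barrier and capillary tone. Brain endothelium changes gradually along the vessel from artery through capillary to vein, and genes of each zone can mark the endothelial partner of a mixed droplet. CD31 is not a pericyte protein. The counts do not tell apart 2 cells in 1 droplet from 1 cell with an attached piece of the other.

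Vtn, which encodes the matrix protein vitronectin, supplied most of the pericyte counts that chose the members. It was detected in all 71 members, with a median of 32 UMIs (range 1 to 125), and made up 61.3%, 71.0%, 73.6% and 72.5% of the pericyte sum in control diet 1 and 2 and PLX5622 diet 1 and 2. Abcc9 and Kcnj8, the paired subunits of the pericyte ATP-sensitive potassium channel, were detected in 59 and 43 members. Pdgfrb, the PDGF-B receptor, was detected in 57 and Atp13a5, a pericyte P-type ATPase, in 52. Cldn5, the tight junction protein claudin-5, had a median of 46 UMIs (range 7 to 155). Of the smooth muscle genes, Tagln was at 0 in every member, Acta2 had a UMI in 1 and Myh11 in 14.

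Droplets with pericyte markers either carried ample Cldn5 or almost none. Of the 185 droplets that met the pericyte and smooth muscle parts of the rule, 96 had no Cldn5 UMI, 16 had 1 and 2 had 2 to 4. Among members, 0 had 5 or 6 Cldn5 UMIs, 68 had at least 10 and 48 had at least 40. The pericyte threshold cut through a continuum instead. Just inside it lay 10 members with a pericyte sum of 8 or 9, and just outside it lay 22 droplets with Cldn5 and a sum of 6 or 7. A further 928 Cldn5 droplets had a sum of 1 to 5, and 13176 had 0. On the smooth muscle side, 0 members had a sum of 7 to 9, while 25 droplets met the other criteria with a sum of at least 10.

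**Figure D1:**
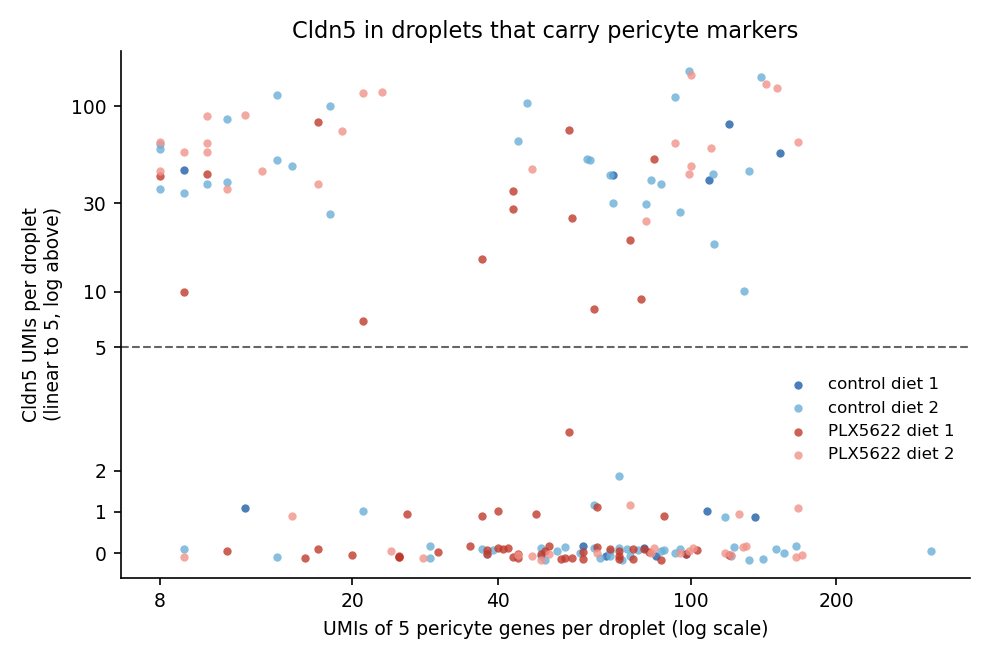
Each point is 1 of 185 droplets with at least 8 UMIs of the 5 pericyte genes and fewer than 10 UMIs of the 3 smooth muscle genes, coloured by library, with the pericyte sum on a log axis and Cldn5 UMIs on an axis that is linear to 5 and log above; points are jittered by less than 0.2 UMIs in height. The dashed line is the Cldn5 threshold of 5 UMIs, with 71 mixed droplets above it and 114 below it, and the space from 5 to 6 UMIs is empty.

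Markers that the rule did not use went with the label for most members. Every member had UMIs of at least 14 of 22 other pan-endothelial genes, such as Pecam1, Cdh5 and Flt1, with a median of 21. Of 18 other pericyte genes, the median member had 11, and 62 of 71 (87.3%) had at least 5. At least 5 were found in 106 of 114 pericyte droplets (93.0%) and in 61 of 14126 endothelial-only droplets (0.432%). One member from control diet 2 had none of them and met the pericyte threshold on Vtn alone.

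Members spread from droplets with a full pericyte signal to droplets with a trace of it. The pericyte sum had a median of 46 and ranged from 8 to 167, and it was under 20 in 28 of 71 members (39.4%), a cut chosen after the values were seen. In the pericyte droplets 8 of 114 (7.02%) were under 20. The 43 members at or above 20 all had at least 5 other pericyte genes, with a median of 15, against 19 of the 28 members below, with a median of 5. Median Cldn5 was 45 UMIs in the former and 49.5 UMIs in the latter. PLX5622 diet 2 had the lowest median pericyte sum, 21, with 11 of its 23 members under 20, whereas the medians were 109, 61 and 43 in control diet 1, control diet 2 and PLX5622 diet 1.

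Mixed droplets were rare in every library. They made up 0.295%, 0.526%, 0.351% and 0.627% of kept droplets in control diet 1, control diet 2, PLX5622 diet 1 and PLX5622 diet 2. Both diets had a lower and a higher library, and the groups overlapped. The diet means were 0.411% ± 0.164 on control and 0.489% ± 0.195 on PLX5622 (SD, n = 2 libraries each), with p = 0.667 in an exact two-sided permutation test. A design of 2 libraries against 2 cannot give a p below 0.333.

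Among droplets with pericyte markers, the mixed kind was common. It made up 71 of 185 (38.4%, 95% Wilson interval 31.7 to 45.6, which covers counting error only). By library the shares were 38.5%, 43.3%, 23.7% and 50.0% in the same order, and the 2 PLX5622 libraries were the lowest and the highest. The exact permutation test gave p = 1.0 for the diet difference of -4.01 percentage points. The mixed share moved with the cut. Its diet means, 40.9% on control and 36.9% on PLX5622, were 36.0% and 29.4% at a pericyte sum of at least 15. They were 47.1% and 37.8% at no more than 5% mitochondrial UMIs, and 41.1% and 38.1% at a smooth muscle sum under 3. Thinned to 2000 UMIs before the rule, the libraries gave 27.3%, 34.7%, 16.7% and 34.4%. Other kinds of droplets were chosen by other cuts, so their shares are not matched to this one. Cldn5 at or above 5 UMIs was found in 39 of 248 droplets with at least 10 smooth muscle UMIs (15.7%, interval 11.7 to 20.8). Outside the mixed, pericyte and smooth muscle droplets, it was found in 11 of 86 with at least 10 UMIs of the astrocyte list (12.8%, interval 7.29 to 21.5). That set left out, among others, 3 mixed and 11 pericyte droplets that reached 10 UMIs of the list. Outside the same classes it was found in 474 of 480 droplets with at least 10 UMIs of the erythroid list (98.8%), and 5 such members were left out. That share has a high base, since 14126 of all 14864 kept droplets are endothelial-only and hold this much Cldn5 by definition. Free RNA, taken from barcodes under 100 UMIs, held Cldn5 at 5318 to 6402 CPM (counts-per-million).

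**Figure D2:**
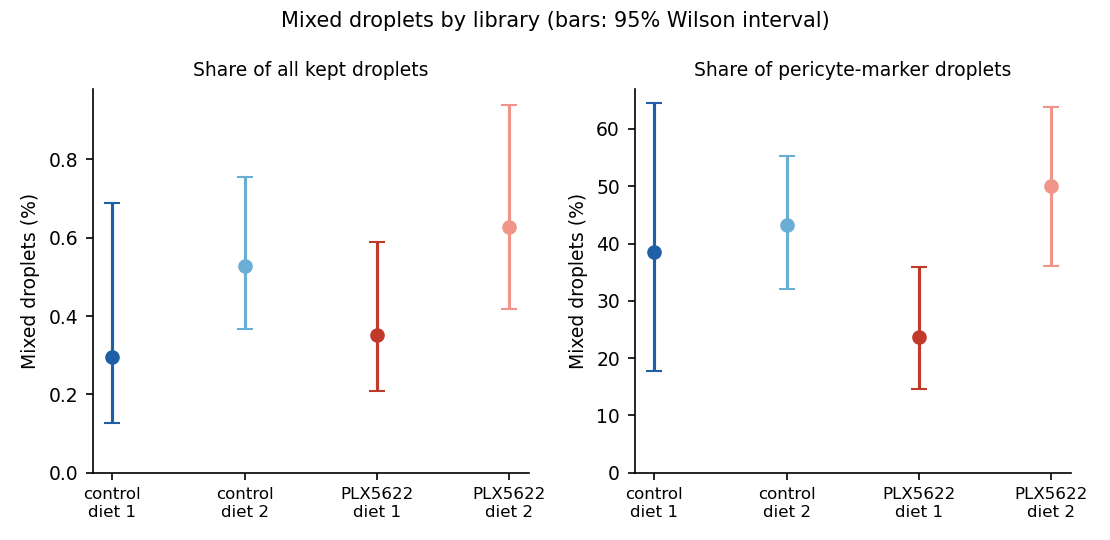
The share of mixed droplets is plotted per library as a percentage of all kept droplets (left) and of pericyte-marker droplets (right), with bars for the 95% Wilson interval of counting error. The libraries of each diet lie on both sides of each other, from 0.295% to 0.627% on the left and from 23.7% to 50.0% on the right.

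Mixed droplets held more RNA than endothelial-only droplets of the same library. Their median was 13898, 9341, 5853.5 and 11011 UMIs in control diet 1 and 2 and PLX5622 diet 1 and 2. Endothelial-only droplets had medians of 5203.5, 5581, 3848 and 5904 UMIs, and pericyte droplets 3110.5, 3692, 2450 and 3465 UMIs. Mixed droplets thus stood at 2.67, 1.67, 1.52 and 1.87 times the endothelial-only median. They stood at 1.67, 1.01, 0.929 and 1.18 times the sum of the other 2 medians, so 3 libraries were near that sum, while the 5 droplets of control diet 1 were above it. Larger droplets meet fixed UMI thresholds more readily, so these ratios describe the classes and carry no test. Individual members ranged from 1369 to 27090 UMIs, and the median number of genes was 2994. By diet the medians averaged 11619.5 ± 3222 UMIs on control and 8432.25 ± 3647 on PLX5622 (SD, n = 2), with p = 0.667 in the exact permutation test.

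**Figure D3:**
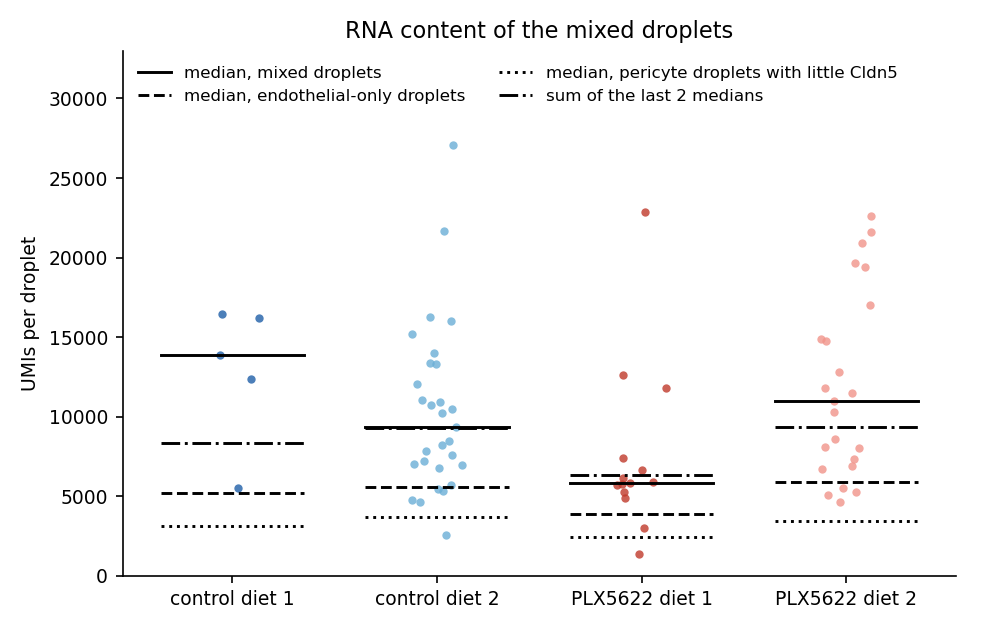
Points are the UMIs of each mixed droplet by library, and horizontal lines give the medians of the mixed, endothelial-only and pericyte droplets and the sum of the last 2. The mixed median lies above the endothelial-only median in all 4 libraries and close to the sum in 3 of them.

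Most of the RNA in a mixed droplet was endothelial. Each library's mixed profile was written as a blend of its endothelial-only profile and a pericyte profile, without the 9 genes of the rule. Non-negative least squares gave an endothelial part of 61.8%, 89.2%, 83.2% and 95.2%, and a multinomial likelihood fit with pooled pericyte droplets gave 67.4%, 79.4%, 79.4% and 85.3%. The diet means of the former were 75.5% ± 19.4 and 89.2% ± 8.52 (SD, n = 2; exact permutation p = 0.667). With the likelihood fit the endothelial RNA of a mean mixed droplet was 1.52, 1.25, 1.36 and 1.5 times that of a mean endothelial-only droplet. Its pericyte RNA was 1.44, 0.739, 0.541 and 0.621 times that of a mean pericyte droplet pooled over the 4 libraries. Only the 93 of 114 pericyte droplets with fewer than 3 UMIs of the fibroblast list and of the oligodendrocyte list were used. The endothelial ratio uses each library's own mean, but this one does not, so library depth enters it. All pericyte droplets averaged 3574, 4837, 2719 and 4353 UMIs by library. By this measure control diet 1 alone held more than 1 pericyte droplet's worth. Single members, judged by their pan-endothelial share, ranged from 22.3% to 131% endothelial, where 100% is the mean endothelial-only droplet. The median was 68.7% in the 43 members with a pericyte sum of at least 20, and 101% in the other 28.

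A blend of the 2 kinds of droplets came close to the mixed profile for most genes. With all pericyte droplets, 88.4% of 6307 genes had a median ratio of observed to blended CPM within 1.5-fold, counting genes of at least 20 CPM in every library in the mixed droplets or the blend. Among the 10 lowest genes were Ptgds, which makes prostaglandin D2 and stood at 15731 CPM in pericyte droplets, Col1a1, a fibroblast collagen, and Npy, a neuropeptide. Ptgds had 4 UMIs in all mixed droplets together, and Col1a1 and Npy had 0. With the pericyte profile of those 93 droplets, 90.1% of 6330 genes lay within 1.5-fold.

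Of 10 compared genes of pericyte contraction and tone, 6 stood above that cleaned blend in all 4 libraries, 0 below and 4 on both sides. Of all 6330 genes, 527 were above it and 588 below in all 4 libraries. Rgs5, a regulator of G-protein signalling that marks pericytes, stood at 4019, 3500, 4395 and 3341 CPM against 3232, 2137, 2233 and 1654 CPM in the blend. Its median ratio was 1.80. Pde5a, which degrades cyclic GMP, had a median ratio of 1.81, Mylk, the myosin light chain kinase, 1.60, Cald1, the actin-binding caldesmon, 1.5 and Myl9, a myosin light chain, 1.43. Of 18 pericyte markers outside the rule, 2 were above in all 4 libraries, Rgs5 among them, 3 below (P2ry14, Gper1 and Ndufa4l2) and 13 on both sides. The list's median ratio was 1.08. Among 22 pan-endothelial genes Kdr, the main VEGF receptor, was above in all 4 (1.21), Egfl7 and Tie1 below, and the list's median was 0.995. Dll4, a Notch ligand of arterial endothelium, was below in all 4 with a median ratio of 0.538.

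Arterial genes that pericyte droplets hardly express were lower in mixed than in endothelial-only droplets, on few UMIs. Most droplets of both kinds held few of them. Zone genes were summed per library and given per 1000 UMIs of the 22 pan-endothelial genes. Many zone genes are also pericyte genes, among them Mgp, Gja4 and Nr2f2, so lists were trimmed to genes that in pericyte droplets stood below 10% of their endothelial-only CPM. The trimmed arterial list (6 of 14 genes) gave 1.47, 1.53, 4.06 and 1.89 in mixed droplets against 6.57, 7.57, 4.93 and 6.76 in endothelial-only droplets, in the usual order of libraries. The mixed value was lower in 4 of 4 libraries, with ratios of 0.223, 0.203, 0.824 and 0.280. PLX5622 diet 1 came nearest to its endothelial-only droplets. In all 71 members together there were 8 UMIs of Bmx, an arterial tyrosine kinase, 6 of Gkn3, 24 of Sema3g, a semaphorin of arterial endothelium, and 1 of Clu, while Cytl1 and Gja5 were at 0. Cytl1 and Gja5 stood at only 0.0750 and 0.0233 per 1000 in endothelial-only droplets, so their zeros carry little weight. With the full arterial list the ratios were 1.16, 0.962, 1.79 and 0.991, so the direction depends on leaving out genes that pericytes share. The 28 members with a pericyte sum under 20 held 2.96 and the other 43 held 1.47 trimmed arterial UMIs per 1000, on 21 and 18 UMIs. Control diet 2 went the other way, with 1.38 and 1.63.

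Capillary genes were near the level of endothelial-only droplets. The trimmed arterial-side capillary list, Slc6a6 and Spock2, had ratios of 0.675, 0.979, 0.875 and 0.995. The trimmed venous-side capillary list, Slc16a1, Tfrc, Slc7a5 and Slc7a1, had ratios of 1.19, 1.12, 0.903 and 1.36. Tfrc, the transferrin receptor, stood at 17.6, 26.3, 15.9 and 21.1 UMIs per 1000 in mixed droplets and 16.6, 18.7, 17.4 and 14.5 in endothelial-only droplets. Slc7a5, the large neutral amino acid transporter, was higher in 3 of 4 libraries, as Tfrc was, Slc7a1 in 2 and Slc16a1 in 1.

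Venous genes showed no single direction. Ratios of the trimmed venous list (4 of 10 genes) were 0.458, 1.13, 0.328 and 1.01, resting on 4, 66, 7 and 56 UMIs. Slc38a5, a glutamine transporter of the venous side, had 71 UMIs in all members, Vwf, the von Willebrand factor, had 62, and Ackr1, a marker of postcapillary and larger venules, had 0. The full venous list gave 2.86, 1.75, 0.835 and 1.34, with Nr2f2, a venous transcription factor that pericytes also express, at 609 CPM in pericyte droplets and 49.7 CPM in endothelial-only droplets.

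**Figure D4:**
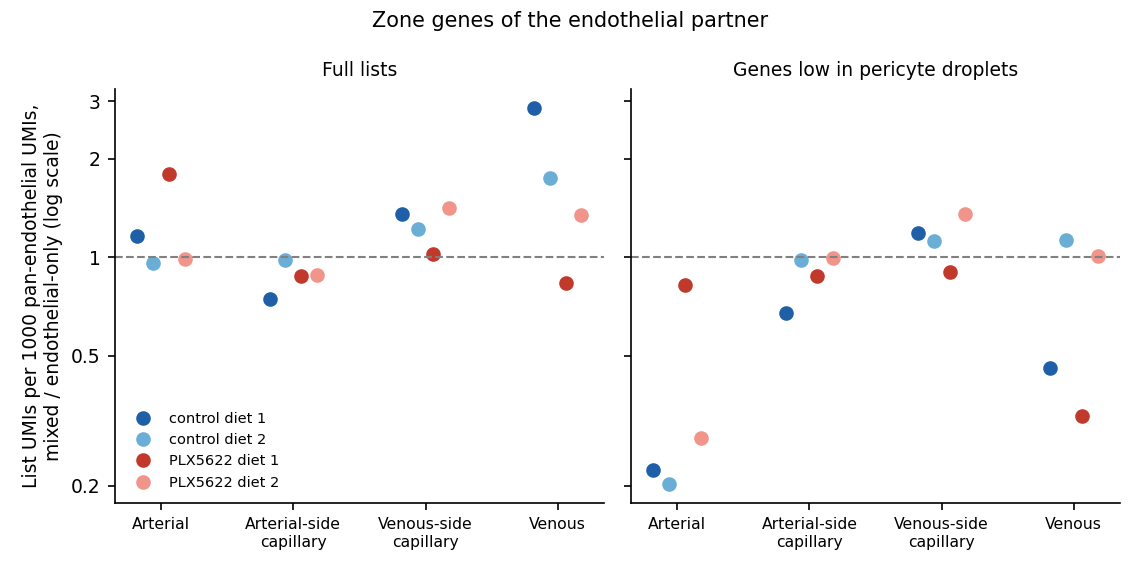
Points give, per library, the zone list UMIs per 1000 pan-endothelial UMIs in mixed droplets divided by those in endothelial-only droplets, on a log axis, for full lists (left) and for lists trimmed to genes low in pericyte droplets (right). On the right the arterial ratio lies below 1 in all 4 libraries, from 0.203 to 0.824, and the capillary ratios lie between 0.675 and 1.36.

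Counted droplet by droplet, 4 of 71 members (5.63%, interval 2.21 to 13.6) had at least 3 trimmed arterial UMIs and fewer than 3 venous ones, against 8.74% of endothelial-only droplets. Venous UMIs alone reached 3 in 13 members (18.3%, interval 11.0 to 28.8) against 13.4%. Both reached 3 in 2 members (2.82%) against 1.88% of endothelial-only droplets, and neither did in 52 (73.2%) against 76.0%. The mixed droplets are deeper. Thinned to 2000 UMIs, with 1 member left out, 11.4% of members (interval 5.91 to 21.0) and 16.4% of endothelial-only droplets held an arterial UMI, and 14 of 70 members (interval 12.3% to 30.8%) and 26.5% held a venous one. After thinning the median member held 50 pan-endothelial UMIs and the median endothelial-only droplet 63, and the intervals cover counting error only, so these shares carry no test. The 13 members with venous UMIs had a median pericyte sum of 93 and 14863 UMIs, and the 4 with arterial UMIs 35 and 8707.5. Other pericyte genes took a median of 6.86 and 6.15 per 1000 UMIs in them. No library had 20 members of either kind, so pericyte genes were not tested between them.

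Arterial and venous lists were compared by diet in the exact permutation test, where p cannot fall below 0.333, so none could pass. Sums of the capillary lists were not compared by diet. The full arterial list stood at 42.5 and 41.1 per 1000 pan-endothelial UMIs on control and 60.9 and 39.3 on PLX5622 (exact permutation p = 1.0). The full venous list stood at 44.7 and 31.2 on control and 15.5 and 27.2 on PLX5622. These groups did not overlap, and p was 0.333, the smallest this design allows. The trimmed venous list overlapped between diets, at 2.93 and 8.44 on control and 2.58 and 7.57 on PLX5622 (exact permutation p = 0.667). The trimmed arterial list, given above, did not overlap, with the larger values on PLX5622 (exact permutation p = 0.333). It rested on 2 and 12 UMIs on control and 11 and 14 on PLX5622. In PLX5622 diet 2, 1 member held 9 of them, and in PLX5622 diet 1 the highest members held 4 and 4. In endothelial-only droplets this list overlapped, at 6.57 and 7.57 on control and 4.93 and 6.76 on PLX5622. The pericyte part of the RNA by the likelihood fit was 32.6% and 20.6% on control and 20.6% and 14.7% on PLX5622, so that the diets overlapped, and its part in the venous difference was not tested.

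The astrocyte and fibroblast lists stood above endothelial-only droplets in all 4 libraries, and red cell RNA was found in a few members. Of 8 microglial genes 7 were at 0, including C1qa, P2ry12, Cx3cr1 and Csf1r. Among 10 astrocyte genes Aqp4, Gfap, Aldoc, Ntsr2 and Slc4a4 were at 0, and Atp1b2, which pericyte droplets also express, gave 177 UMIs. The astrocyte list summed to 512 and 279.7 CPM on control and 380.5 and 222 CPM on PLX5622, against 58.0 to 68.3 CPM in endothelial-only and 665 to 2187 CPM in pericyte droplets. The fibroblast list, with Col1a1 and Lum at 0, summed to 248, 73.3, 66.6 and 61.9 CPM, against 0.985 to 1.72 CPM in endothelial-only and 315 to 2508 CPM in pericyte droplets. Both lists thus lay between the other 2 kinds of droplets, and their part in the diet values was not tested. Erythroid genes reached 10 UMIs in 0, 1, 2 and 2 members. Those 5 members held 21 UMIs of the list in control diet 2, 37 and 3599 in PLX5622 diet 1, and 2253 and 6706 in PLX5622 diet 2. The list summed to 0 and 96.6 CPM on control and 34609 and 32684 CPM on PLX5622.

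Diet was tested on UMIs summed per library over the members, 64443 and 300270 on control and 105118 and 274444 on PLX5622. In edgeR's quasi-likelihood test 5 of 3696 genes were higher on PLX5622 (0.135% of genes tested) and 0 were lower, at a Benjamini-Hochberg adjusted p under 0.05. At an unadjusted p under 0.05 there were 131 genes. The 5 genes were the haemoglobin genes Hba-a1, Hba-a2, Hbb-bs and Hbb-bt, and Isg15, a ubiquitin-like protein induced by interferon. DESeq2 called 4 higher and 0 lower. With the 5 members carrying red cell RNA left out, an alternative chosen after seeing the data, edgeR called 0 of 3101 genes, with 104 at an unadjusted p under 0.05.

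The haemoglobin counts came from few droplets. Hbb-bs, adult beta globin, had 0 and 15 UMIs on control and 2107 and 5720 on PLX5622, which is 0, 50.0, 20044 and 20842 CPM. A single droplet held 98.7% of these UMIs in PLX5622 diet 1 and another held 76.4% in PLX5622 diet 2. Its log2 fold change was 9.06 ± 0.46 (SE; edgeR adjusted p = 2.24e-20). In endothelial-only droplets Hbb-bs stood at 5162, 8567, 14232 and 15082 CPM, a log2 fold change of 1.15 with an adjusted p of 0.0272.

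Isg15 was spread over many members. It had 2 and 29 UMIs on control and 33 and 73 on PLX5622, in 2 of 5, 13 of 29, 8 of 14 and 18 of 23 members. In CPM this was 31.0 and 96.6 on control and 313.9 and 266.0 on PLX5622, and both PLX5622 libraries lay above both controls. The means were 63.8 ± 46.3 and 290.0 ± 33.9 CPM (SD, n = 2), and the edgeR estimate was 1.87 ± 0.38 (SE) on the log2 scale, adjusted p = 0.00975. In endothelial-only droplets of the same libraries it stood at 183, 226, 289 and 353 CPM, a log2 fold change of 0.71 with an adjusted p of 0.0143, and the difference between the 2 effects did not pass (1.28 ± 0.39, adjusted p = 0.812). The latter passed with droplets of no more than 5% mitochondrial UMIs (2.22, adjusted p = 0.0158), an alternative chosen after seeing the data. With droplets of at least 3 astrocyte list UMIs or 10 erythroid UMIs left out, 1, 14, 8 and 12 members remained and the mixed value was 0.93 (adjusted p = 0.994). The mixed call was also lost without the red cell droplets (1.70, adjusted p = 0.865), without control diet 1 (1.60, adjusted p = 0.0556), in DESeq2 (2.07, adjusted p = 0.9999) and in limma-voom (1.68, adjusted p = 0.210).

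Of 9 tested genes of the interferon list 1 was higher, 0 were lower and 8 did not pass, with a median log2 fold change of 0.38 beside 0.0047 over all genes tested. The list summed to 729 and 969 CPM on control and 1456 and 1308 CPM on PLX5622 in mixed droplets. In endothelial-only droplets, where 154 of 12926 genes (1.19%) were called and 0.859% were called higher, 5 of 12 interferon genes were higher.

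Sterol genes had too few UMIs in mixed droplets for most to be tested. Of 20 cholesterol synthesis genes 3 were tested and 0 passed, whereas in endothelial-only droplets of the same libraries 14 of 20 were higher and 0 lower. Over all genes tested there, 0.859% were called higher and 0.333% lower. The list summed to 450.0 and 429.6 CPM on control and 457 and 802 CPM on PLX5622 in mixed droplets, and to 347, 368, 631 and 668 CPM in endothelial-only droplets, so in mixed droplets PLX5622 diet 1 was near the controls. Insig1, a sterol-sensing regulator, stood at 31.0 and 26.6 CPM on control and 66.6 and 61.9 CPM on PLX5622. Both PLX5622 libraries lay above both controls, on few UMIs of this gene in each library. Its log2 fold change was 1.24 ± 0.65 (SE; edgeR adjusted p = 0.999), beside 1.49 in endothelial-only droplets. Hmgcs1, the HMG-CoA synthase of the cytosol, stood at 93.1, 36.6, 28.5 and 120.2 CPM, and its diets overlapped. Sqle, squalene epoxidase, had 6 UMIs in all and Idi1, an isoprenoid isomerase, 31.

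**Figure D5:**
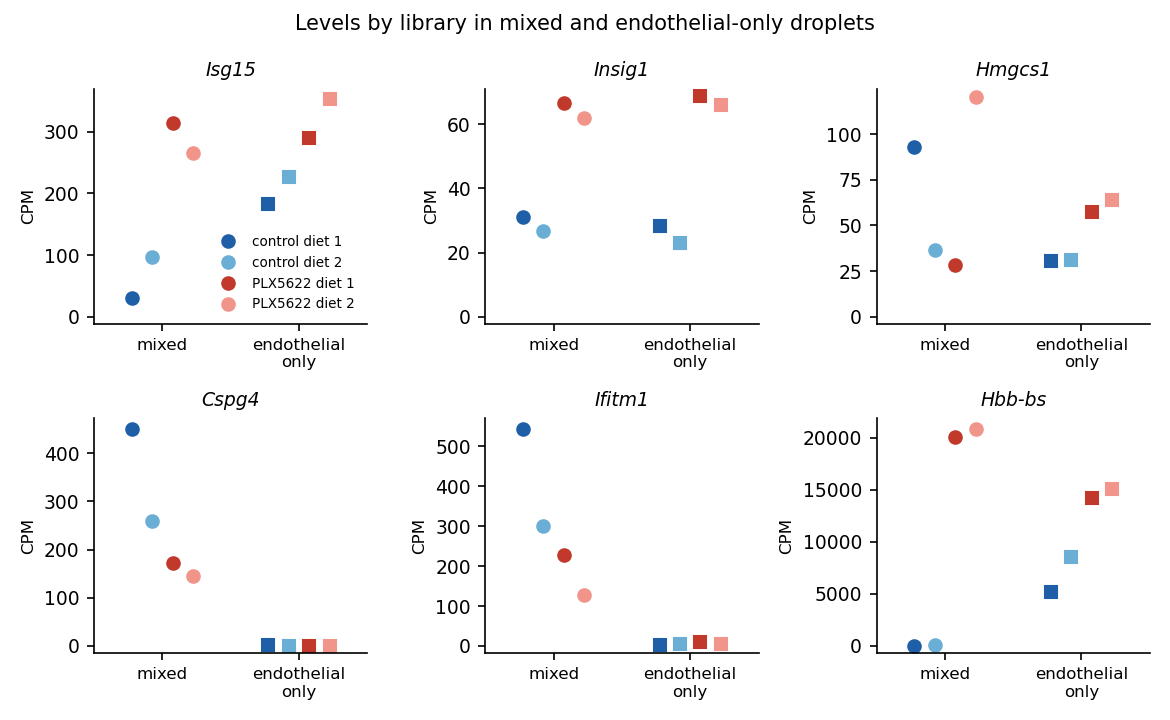
CPM per library of 6 genes are plotted for mixed (circles) and endothelial-only droplets (squares) on linear axes that start just below 0, with control libraries in blue and PLX5622 libraries in red. Isg15 and Insig1 lie higher in both PLX5622 libraries in both kinds of droplets, with few UMIs of Insig1 in mixed droplets. Hbb-bs in mixed droplets on PLX5622 rests mostly on 1 droplet per library.

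Pericyte genes did not pass the diet test. Of 18 markers outside the rule 14 were tested, 0 passed, and 11 had a log2 fold change below 0, with a median of -0.30 beside 0.0047 over all genes tested. Rgs5 stood at 4019 and 3500 CPM on control and 4395 and 3341 CPM on PLX5622 (0.12 ± 0.28, edgeR adjusted p = 0.999). Cspg4, the NG2 proteoglycan, stood at 450.0 and 259.8 CPM on control and 171 and 146 CPM on PLX5622 (-0.99 ± 0.35), and Notch3, the mural Notch receptor, at 264, 239.8, 285 and 182 CPM. The part of pericyte RNA in each library's sum is given above, and its part in these values was not tested. Among 27 genes of signalling and contact between the 2 cell types 21 were tested and 0 passed. Pdgfb, the endothelial ligand of PDGFRB, stood at 310.4, 476, 371 and 707 CPM (0.49 ± 0.31), and Angpt2, an antagonist of the Tie2 receptor, had 11 UMIs. Of 10 barrier genes all were tested and 0 passed, with Slc2a1, the glucose transporter, at 1024, 1425, 1417 and 1348 CPM and Mfsd2a, a lipid transporter, at 62.1, 269.8, 399.6 and 251 CPM. Pericyte droplets were not tested by diet because control diet 1 had 8 of them.

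The difference between the diet effect in mixed and in endothelial-only droplets was tested in 1 model with the library as a block. Of 11664 genes 6 passed (0.0514%), 4 with a higher (0.0343%) and 2 with a lower effect (0.0171%) in mixed droplets, and 327 had an unadjusted p under 0.05. The 4 were the haemoglobin genes. Vcam1, an adhesion receptor, differed by -3.16 ± 0.56 (adjusted p = 4.02e-05), on 1, 39, 0 and 10 UMIs, and 1 droplet held 92.3% of the UMIs in control diet 2. Without control diet 2 the value was -0.62 (adjusted p = 0.984). Of 18 pericyte markers outside the rule, all tested here, 1 was called lower and 0 higher, and 2 had a value above 0. Their median was -0.43 beside 0.030 over all genes tested, and the part of pericyte RNA in these values was not tested. Ifitm1, an interferon-induced membrane protein abundant in pericytes, differed by -2.20 ± 0.45 (adjusted p = 0.00164). It stood at 543 and 299.7 CPM on control and 228 and 128 CPM on PLX5622 in mixed droplets and at 1.75 to 9.56 CPM in endothelial-only droplets, and it was not called without control diet 1 (-1.65, adjusted p = 0.124), without PLX5622 diet 1 (-2.14, adjusted p = 0.237) or in DESeq2 (-2.40, adjusted p = 0.208).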

How the data were processed

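The authors deposited raw UMI counts for each barcode and gene before cell calling, whole numbers in every file. Cell Ranger is version 4 per the file headers and version 6.0.1 per the submitters' processing notes, which also list Seurat 4.0 and the builds mm10 and mm39. The genome build behind the counts is not given in these sources, and no coordinates are printed.

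Droplets were classed by the rule given in the report, and UMIs were summed per library and class, since droplets are not replicates. The members and gene lists were chosen with earlier results of these data known. Because the rule used measured values, classes are compared as a description, and tests compare diets only. Diets were compared by the quasi-likelihood test of edgeR 4.0.16 in R 4.3.3 (TMM, default low-count filter, robust), two-sided, with Benjamini-Hochberg adjustment over all genes tested. Tested on simulated data in mixed droplets, it called a few unchanged genes, missed most 2-fold changes and found most 4-fold changes. In the interaction it missed most 4-fold changes. Both simulations gave every gene 1 shared dispersion and did not model UMIs held mostly by single droplets. Recovery and false calls in the real data may therefore differ. Single values per library went through exact two-sided permutation tests (scipy 1.17.1). DESeq2 1.42.0 and limma-voom 3.58.1 were alternatives, as were other rule thresholds, depths and left-out libraries. Named genes were to be the 12 highest and 12 lowest fold changes among calls of at least 20 CPM on one side of both controls. Added were the rule genes, marker genes, up to 6 members per list with the smallest p, a fixed set of sterol, inflammatory and barrier genes, the 5 smallest interaction p values per direction, and the 10 highest and 10 lowest ratios to the blend. Others named were chosen after their values were seen. Kept droplets had medians of 3834 to 5921.5 UMIs, and 5 to 29 members per library limit the precision. A few genes are not reported here.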

Additional observations from a re-analysis of the deposited data

Results flagged for a closer look

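The diet effect differed between mixed and endothelial-only droplets for 6 genes in edgeR's test of the interaction over 11664 genes. For 4 haemoglobin genes the effect on the log2 scale was larger in mixed droplets, by 8.16 for Hbb-bs, 7.65 for Hba-a1, 6.46 for Hba-a2 and 8.96 for Hbb-bt. Single droplets held 69.6% to 99.4% of each of these genes' UMIs in each PLX5622 library. With the 5 members carrying red cell RNA left out, the values were -0.38, -0.96, 0.84 and 6.46, and none of the 4 passed, Hbb-bt then resting on few UMIs. For Vcam1 the effect was lower by a log2 value of -3.16 and for Ifitm1 by -2.20. In members with a pericyte sum of at least 15 UMIs Vcam1 stood at -0.31 (edgeR adjusted p = 1.0). Ifitm1 had 35, 90, 24 and 35 UMIs in mixed droplets of control diet 1 and 2 and PLX5622 diet 1 and 2. The 18 pericyte markers outside the rule had a median value of -0.43 in this test, with 2 above 0. With 2 libraries per diet, no test for a library that stands apart was possible within a diet.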

How the results depend on the processing

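Calls by diet rested on few droplets. An alternative left out droplets with at least 3 astrocyte list UMIs or 10 erythroid UMIs (1, 14, 8 and 12 members kept, 1574 genes tested). The astrocyte list holds Atp1b2, which pericyte droplets also express, so pericyte-rich members can be dropped. In control diet 1 the member kept had a pericyte sum of 9. The count of genes called in mixed droplets, 5, became 0 there (20 at an unadjusted p under 0.05 in edgeR) and 0 without the red cell droplets. It ranged from 5 to 41 when 1 library was left out, with 41 without control diet 2 (34 higher, 7 lower, 2623 genes tested) and 8 without PLX5622 diet 2. The interaction count, 6, became 2 without the red cell droplets and ranged from 5 to 9 with 1 library left out, with 9 without control diet 2. Fits with 1 library in a diet assume that it varies like the others. The correlation of deviations between same-numbered libraries was 0.0325 over 3696 genes. With 2 libraries per diet it is the same for both numbers, so it cannot settle whether replicate numbers pair the libraries. The share of kept droplets and the endothelial part were lower in library 1 of both diets, the median UMIs only on PLX5622. A fit with the numbers as a replicate block called 4 genes, without Isg15 (edgeR adjusted p = 0.0671). The diet difference in the share of kept droplets was 0.0782 percentage points and turned to -0.00440 at no more than 5% mitochondrial UMIs and -0.0191 after thinning to 2000 UMIs. With 1 library left out it ranged from -0.0596 to 0.216, the difference in the share of pericyte-marker droplets from -17.1 to 9.13, the endothelial part from -0.0326 to 27.4 percentage points, and the full arterial ratio from -2.47 to 19.1. In the same way the interaction value of Idi1 (0.59) ranged from -0.20 to 0.91 and that of Hmgcs1 (-0.05) from -1.64 to 0.35, the latter being 0.019 at a smooth muscle sum under 3. Those of Hbb-bs and Hba-a1 were -0.38 and -0.96 without the red cell droplets. The cause of these changes was not tested. Diet in pericyte droplets and pericyte genes by partner zone were not fitted, for want of 20 droplets per library. The 71 members limit every value.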

Other observations

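In the mixed droplets, all 7 tested members of the heat shock list had a log2 fold change above 0, with a median of 0.51 beside 0.0047 over all 3696 genes, but 0 passed edgeR's test. The list summed to 1878 and 2061 CPM on control and 3101 and 2281 CPM on PLX5622. In endothelial-only droplets 3 of 8 were called higher, beside 0.859% of all 12926 genes tested there. Immediate early genes, the transcription factors that respond first to stimulation and to tissue dissociation, summed to 23416 and 24208 CPM on control and 16676 and 18773 CPM on PLX5622 in mixed droplets, with 0 of 8 passing and a median of -0.39. In endothelial-only droplets they summed to 29871, 30290, 26901 and 23910 CPM, also with 0 of 8 passing. Of 14 basement membrane genes 13 were tested in mixed droplets and 0 passed, with a median of -0.15.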
